A study of Mus musculus with 12 samples.

Results

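Genes of monocytes and macrophages, namely Cd68, Csf1r, Adgre1, Itgam, Cx3cr1, Ccr2, Mrc1, Cd163, Arg1 and Spp1, were followed through colon tumours and the colon beside them. They were chosen by name, as 10 of the 48448 genes listed, and 9 of them were among the 16970 genes that could be tested. Cd163 was too low to be tested. The 12 RNA-seq libraries came from C57BL/6 mice in a model of cancer arising in an inflamed colon and fell into 4 groups of 3. Flox mice carried a floxed Synbindin allele and served as controls. ΔIEC mice lacked Synbindin in intestinal epithelial cells, so the deletion was aimed at the epithelium and not at macrophages. From each genotype there were tumours and adjacent colon. The Cre driver, the agents that induced the tumours, and the age and sex of the mice were not given in the sources used here, and no label says that the replicates of a group were separate animals, so a p-value reflects the spread among these libraries. Levels are given in FPKM, fragment counts scaled by transcript length and library size, which can be set side by side between genes.

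Trappc4, the gene of Synbindin, ranged from 16.8 to 20.9 FPKM in the flox libraries and from 9.91 to 12.7 in the ΔIEC libraries, lower in the latter, as their labels have it. Read counts were not analysed here and the depth of each library is unknown. Between 14757 and 15893 genes per library reached 1 FPKM. The series is titled as scraped epithelium, whereas its protocol describes dissected tumours and adjacent tissue. Genes of macrophages, fibroblasts, endothelium and lymphocytes were present in all groups beside abundant epithelial genes, so the libraries held mixed tissue. In such bulk samples more macrophages and more RNA per macrophage cannot be told apart.

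Colon macrophages are largely replaced from the blood throughout life. Monocytes that carry the chemokine receptor Ccr2 leave the vessels, mature under the growth factors that bind Csf1r, and gain Adgre1, the F4/80 antigen, and the fractalkine receptor Cx3cr1. In inflamed or growing tissue the incoming cells can instead make arginase-1, the product of Arg1, which splits arginine into ornithine and urea, and osteopontin, the secreted adhesion protein encoded by Spp1. Neither gene is restricted to macrophages: osteopontin is also made by epithelial and stromal cells, arginase-1 by neutrophils in some settings, and Itgam is carried by neutrophils as well as by monocytes.

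Csf1r encodes the receptor for the growth factors Csf1 and Il34, on which macrophages depend (GRCm38 chromosome 18, 61100598 to 61132149, plus strand). Its level was 6.28, 4.66 and 4.07 FPKM in flox adjacent replicates 1, 2 and 3 and 17, 8.79 and 11.9 in the flox tumours. In ΔIEC mice it was 2.67, 14.1 and 13.1 FPKM in adjacent tissue and 11.7, 13.6 and 17.1 in tumours. All flox tumours lay above all flox adjacent libraries. In ΔIEC mice adjacent replicate 1 was the lowest of the 12 libraries while replicates 2 and 3 reached the tumour range, so the groups overlapped. The tumour difference on the log2(FPKM + 1) scale, on which low genes appear less changed than they are, was 1.15 in flox (95% interval 0.10 to 2.20, limma adjusted p = 0.0798) and 0.70 in ΔIEC mice (-0.35 to 1.75, adjusted p = 0.288), and neither passed the threshold of 0.05.

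Cd68, a lysosomal glycoprotein of macrophages (chromosome 11, 69664213 to 69666153, minus strand), followed Csf1r closely at a somewhat lower level. It was at 4.96, 3.81 and 2.98 FPKM in flox adjacent tissue and 10.1, 8.12 and 7.67 in flox tumours, again without overlap. In ΔIEC mice it was at 2.44, 7.24 and 9.12 FPKM in adjacent tissue and 8.67, 8.69 and 9.51 in tumours. The ΔIEC adjacent libraries were widely spread, with replicate 3 inside the tumour range and replicate 1 the lowest of all. The group means were 3.92 ± 0.992, 8.63 ± 1.29, 6.27 ± 3.44 and 8.96 ± 0.478 FPKM in the same order (SD, n = 3). Cd68 rose in flox tumours by 0.98 (95% interval 0.24 to 1.72, limma adjusted p = 0.0418), and the ΔIEC difference of 0.59 was not called (adjusted p = 0.203).

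Adgre1 (chromosome 17, 57358691 to 57483527, plus strand), the F4/80 antigen of mature mouse macrophages, did not separate tumour from adjacent tissue. It was at 3.52, 1.27 and 1.8 FPKM in flox adjacent tissue and 5.65, 3.57 and 2.99 in flox tumours. The ΔIEC values were 1.49, 6.16 and 4.86 FPKM in adjacent tissue and 3.81, 5.22 and 3.98 in tumours. Flox adjacent replicate 1 lay within the tumour range, and ΔIEC adjacent replicate 2 was the highest of all 12 libraries. The tumour differences were 0.69 in flox (95% interval -0.17 to 1.56, adjusted p = 0.186) and 0.17 in ΔIEC mice (-0.69 to 1.03, adjusted p = 0.769), and Adgre1 was called in neither.

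Mrc1 and Cd163 are scavenger receptors of tissue macrophages. Mrc1, the mannose receptor CD206 (chromosome 2, 14229392 to 14332057, plus strand), was at 4.82, 1.9 and 1.86 FPKM in flox adjacent tissue and 11.8, 7.36 and 8.49 in flox tumours. In ΔIEC mice it was at 1.35, 6.57 and 6.01 FPKM in adjacent tissue and 8.83, 8.34 and 10.7 in tumours. Every tumour lay above every adjacent library of both genotypes. Mrc1 rose in flox tumours by 1.46 (95% interval 0.51 to 2.42, adjusted p = 0.0233), whereas the ΔIEC difference of 1.04 (0.09 to 1.99) had an adjusted p of 0.0924.

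Cd163, the haemoglobin scavenger receptor (chromosome 6, 124304656 to 124330527, plus strand), was scarcely present. It was at 0.234, 0.00834 and 0.24 FPKM in flox adjacent tissue, 0.158, 0.141 and 0.0573 in flox tumours and 0.0456, 0.192 and 0.264 in ΔIEC tumours. The highest values, 0.072, 1.03 and 0.703 FPKM, came from ΔIEC adjacent tissue, where replicates 2 and 3 were above all other libraries and replicate 1 was not. No test was made for Cd163.

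The receptors that bring monocytes into tissue and hold them there differed among themselves. Itgam, the CD11b chain of the integrin CR3 (chromosome 7, 128062640 to 128118491, plus strand), was at 2.86, 2.94 and 1.83 FPKM in flox adjacent tissue and 8.55, 5.65 and 8.59 in flox tumours. In ΔIEC mice it was at 0.897, 3.82 and 3.94 FPKM in adjacent tissue and 13.8, 7.29 and 9.56 in tumours. All 6 tumours lay above all 6 adjacent libraries. Itgam rose in tumours of both genotypes, by 1.28 in flox (95% interval 0.47 to 2.08, limma adjusted p = 0.0207) and 1.62 in ΔIEC mice (0.81 to 2.42, adjusted p = 0.00931).

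Ccr2, the receptor of the monocyte chemoattractant Ccl2 (chromosome 9, 124101950 to 124113557, plus strand), was at 1.92, 1.0 and 0.983 FPKM in flox adjacent tissue and 3.75, 3.17 and 3.43 in flox tumours. In ΔIEC mice it was at 0.899, 2.17 and 5.74 FPKM in adjacent tissue and 2.11, 2.54 and 5.03 in tumours. The flox groups did not overlap, while ΔIEC adjacent replicate 3 was the highest of all 12 libraries. Neither difference passed, at 0.97 in flox (95% interval 0.07 to 1.88, adjusted p = 0.085) and 0.24 in ΔIEC mice (-0.67 to 1.14, adjusted p = 0.695).

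Cx3cr1, the fractalkine receptor of resident gut macrophages (chromosome 9, 119901616 to 120069879, minus strand), was at 3.05, 1.35 and 1.42 FPKM in flox adjacent tissue and 4.95, 2.35 and 3.6 in flox tumours. The ΔIEC values were 1.41, 5.11 and 4.78 FPKM in adjacent tissue and 2.42, 4.45 and 2.85 in tumours. Tumour and adjacent values overlapped in both genotypes, and the highest library of the series was again an adjacent one, ΔIEC replicate 2. The differences were 0.66 in flox (-0.18 to 1.51, adjusted p = 0.197) and -0.08 in ΔIEC mice (-0.93 to 0.76, adjusted p = 0.892). The ΔIEC value turned to 0.14 when protein-coding genes were rescaled to a common total.

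Arg1 and Spp1 showed by far the largest differences of the 10 genes. Arg1 (chromosome 10, 24915221 to 24927484, minus strand) was at 0.754, 2.74 and 1.62 FPKM in flox adjacent tissue and 32.8, 23.7 and 33.1 in flox tumours. In ΔIEC mice it was at 0.895, 0.669 and 0.423 FPKM in adjacent tissue and 47.1, 12.8 and 17.7 in tumours. Every tumour was far above every adjacent library, although the ΔIEC tumours were spread, with replicate 1 the highest and replicate 2 the lowest of the 6. The mean was 17.5-fold higher in flox tumours (29.9 ± 5.36 against 1.71 ± 0.997 FPKM, SD, n = 3) and 39.1-fold higher in ΔIEC tumours (25.9 ± 18.5 against 0.662 ± 0.236). On the log2 scale Arg1 rose by 3.56 (95% interval 2.64 to 4.49, limma adjusted p = 4.28e-04) and 3.81 (2.88 to 4.74, adjusted p = 7.95e-04).

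Spp1 (chromosome 5, 104435118 to 104441050, plus strand) was below 1 FPKM in all adjacent libraries, at 0.522, 0.752 and 0.139 FPKM in flox and 0.138, 0.353 and 0.149 in ΔIEC mice. In tumours it reached 25.1, 17.3 and 15 FPKM in flox and 21.2, 43.6 and 6.94 in ΔIEC mice. The ΔIEC tumours held both the highest and the lowest of the 6 tumour values, in replicates 2 and 3. The mean was 40.7-fold higher in flox tumours and 112-fold higher in ΔIEC tumours, ratios that rest on adjacent levels close to 0. Spp1 rose by 3.77 in flox (95% interval 2.67 to 4.87, adjusted p = 6.26e-04) and 4.04 in ΔIEC mice (2.94 to 5.14, adjusted p = 0.00105). Without their tumour libraries neither Spp1 nor Arg1 would have passed the filter on low values (at least 1 FPKM in at least 3 libraries), so their presence among the tested genes already asked for high tumours. With no filter, among 31599 genes, the adjusted p was 9.48e-04 and 0.00160 for Arg1 and 0.00131 and 0.00224 for Spp1.

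**Figure D1:**
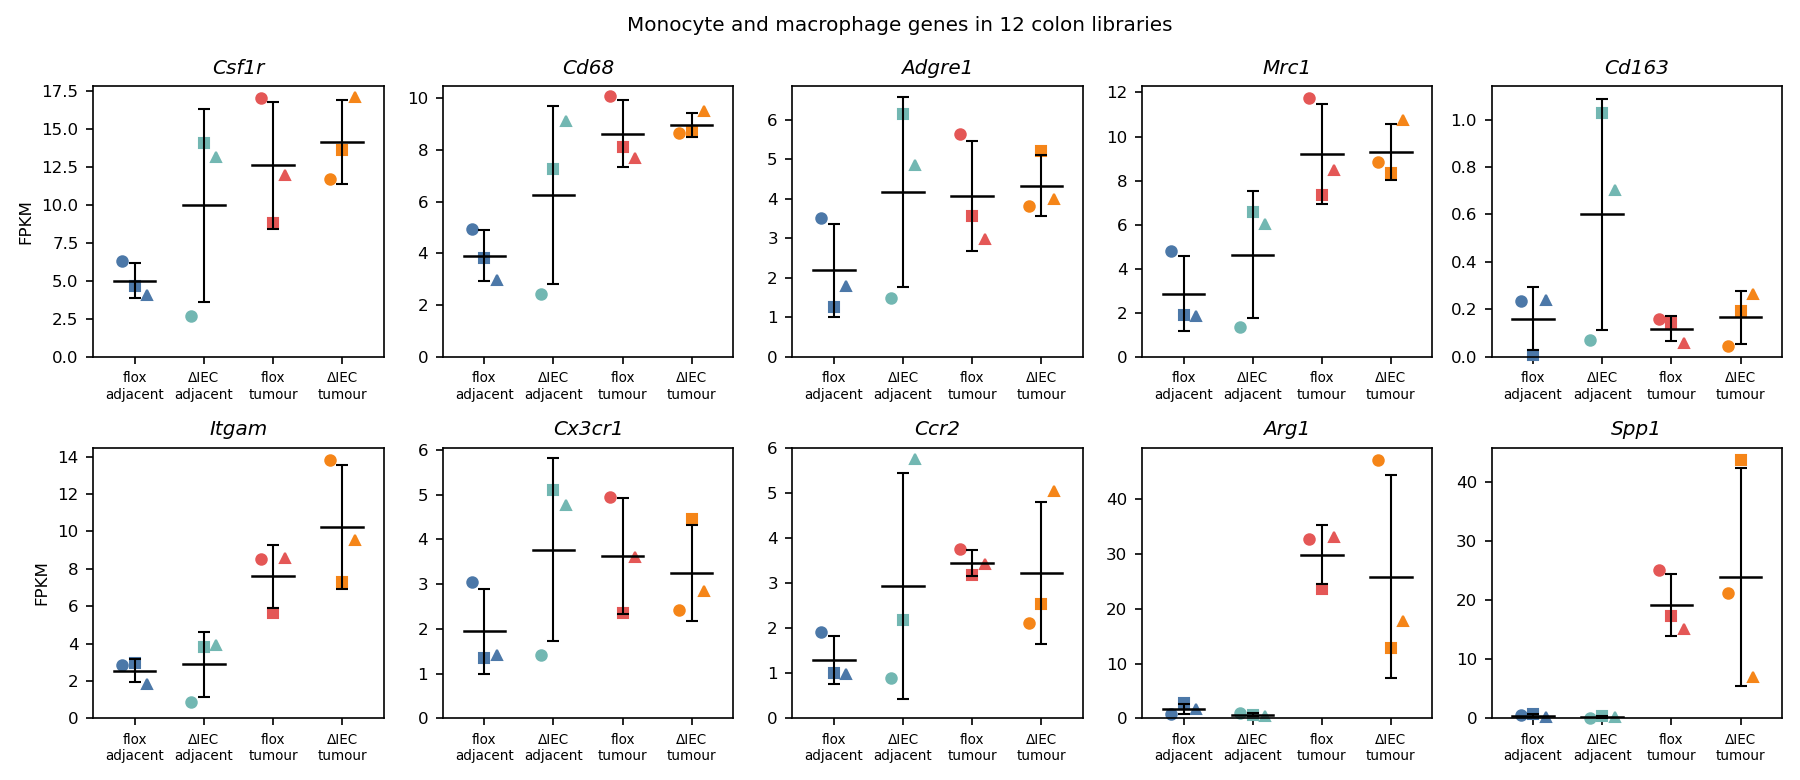
FPKM of each of the 10 genes, 1 point per library (replicate 1 a circle, 2 a square, 3 a triangle), by group, with black bars for group mean and SD (n = 3); each vertical axis starts at 0. Arg1 and Spp1 stand near the axis in adjacent tissue and at 6.94 to 47.1 FPKM in tumours, whereas ΔIEC adjacent replicates 2 and 3 reach tumour levels for Csf1r, Adgre1, Cx3cr1 and Ccr2.

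In flox mice 5 of the 9 tested genes were called, all higher in tumours, where 16.6% of all 16970 tested genes were called higher and 36.3% in either direction. Of the 9, 7 were higher in tumours without overlap between the groups, a pattern shown by 26.4% of tested genes. Their median log2 difference was 1.15 against -0.01 over all tested genes. In ΔIEC mice 3 of 9 were called, all higher, against 13.9% of tested genes called higher and 29.4% called in either direction. Of the 9, 4 (Itgam, Mrc1, Arg1 and Spp1) were higher without overlap, against 20.8% of tested genes, and the median was 0.70 against -0.03. The exact permutation test of 3 libraries against 3 gave p = 0.1 for each non-overlapping gene, the smallest p this design allows. These counts include Arg1 and Spp1, which had to be high in tumours to be tested and lend the counts no support. Of the 7 genes that passed on adjacent libraries alone, 3 were called in flox (Cd68, Itgam and Mrc1) and 1 in ΔIEC mice (Itgam). With no filter 4 and 3 of all 10 were called higher, against 8.39% and 6.58% of 31599 genes, with medians of 1.07 and 0.65.

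The adjusted p of Arg1 and Spp1 was at most 0.00399 in flox and 0.0332 in ΔIEC mice over the 17 alternatives of each tumour comparison, most of which used the same filter. Itgam kept its ΔIEC call in 15 of the 17 and lost it with only the groups compared (adjusted p = 0.0515) and with a replicate block by code as a fixed term (0.105). Cd68, Itgam and Mrc1 kept their flox calls in 10, 14 and 13. The flox count was 7 with only the groups compared or with protein-coding genes rescaled, where Csf1r (adjusted p = 0.0155 and 0.0249) and Ccr2 (0.0107 and 0.0262) also passed. It was 9 with a replicate block by code as a fixed term, but 5, as in the main fit, with that block as a shared correlation. It was 3 without flox adjacent replicate 2 and 2 without flox adjacent replicate 3, flox tumour replicate 1 or flox tumour replicate 3. The flox calls over all tested genes moved too, from 6163 in the main fit to 3891, 4492, 4533 and 4623 in that order. They were 7391 with protein-coding genes rescaled, 6313 with only the groups compared and 5959 with the fixed block. The ΔIEC calls over all tested genes were 4981 in the main fit, 2564 with only the groups compared and 651 with the fixed block. The ΔIEC median was 0.12 without ΔIEC adjacent replicate 1 and 1.05 without replicate 2. Whether the flox and ΔIEC tumour differences differ was tested as the interaction, described with the genotype comparison.

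**Figure D2:**
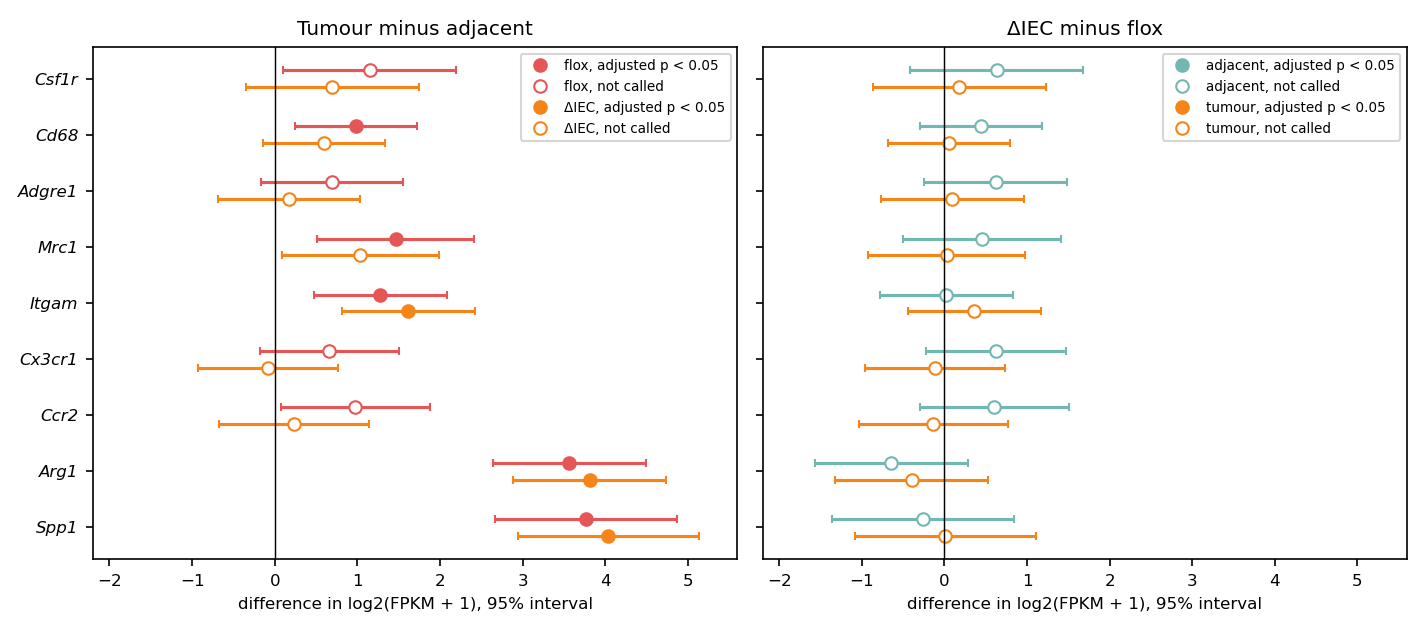
Difference on the log2(FPKM + 1) scale with its 95% interval for the 9 tested genes, for tumour against adjacent tissue in each genotype (left) and for ΔIEC against flox in each tissue (right); filled points passed the limma test at an adjusted p below 0.05. Arg1 and Spp1 lie between 3.56 and 4.04 in both tumour comparisons, and all genotype intervals include 0.

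The comparison of genotypes asks whether losing Synbindin in the epithelium went with other levels of macrophage genes. None of the 9 genes was called by limma in adjacent tissue, in tumours or in the interaction of genotype and tissue, where 0.0% of the 16970 tested genes were called in each case. At an unadjusted p below 0.05 there were also 0 of the 9, against 4.14% of all tested genes in adjacent tissue, 1.87% in tumours and 2.64% for the interaction. Trappc4, the deleted gene, was not called by limma either, at -0.59 in adjacent tissue and -0.70 in tumours, with an unadjusted p below 0.05 in both. A missing call therefore does not show equal levels. In tumours the genotypes overlapped for all 10 genes, where 6.77% of tested genes did not. The tumour differences were 0.06 for Cd68 (95% interval -0.68 to 0.79), 0.18 for Csf1r (-0.86 to 1.23) and 0.10 for Adgre1 (-0.76 to 0.96). Itgam, at 0.36 (-0.44 to 1.17), and Arg1, at -0.40 (-1.32 to 0.53), lay farthest from 0. The interval for Spp1 was the widest, -1.09 to 1.11, so a difference of 1 log2 unit in either direction was within it. The median over the 9 genes was 0.03.

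In adjacent tissue 7 of the 9 genes had a higher mean of log2 values in ΔIEC mice, with a median difference of 0.46, but all 10 genes overlapped between genotypes, where 7.71% of tested genes did not. The differences were 0.63 for Csf1r (95% interval -0.41 to 1.68), 0.63 for Cx3cr1 (-0.22 to 1.47), 0.62 for Adgre1 (-0.24 to 1.48) and 0.60 for Ccr2 (-0.30 to 1.51). Arg1 and Spp1 had lower means in ΔIEC mice, at -0.64 (-1.57 to 0.28) and -0.26 (-1.36 to 0.84). The limma adjusted p was at least 0.931 throughout. For Csf1r the replicate libraries within ΔIEC adjacent tissue differed more than the genotype means did. Replicates 2 and 3 held 14.1 and 13.1 FPKM of Csf1r and replicate 1 held 2.67. For Arg1 and Spp1 the ΔIEC replicates differed less than the genotype means. Without ΔIEC adjacent replicate 1 the median was 1.00 and 2 genes were called, Cd68 (0.91, adjusted p = 0.0430) and Csf1r (1.30, adjusted p = 0.0404), with 299 genes called in all. The median was 0.78 without flox adjacent replicate 1, 0.30 without flox adjacent replicate 3, and 0.28 and 0.14 without ΔIEC adjacent replicates 2 and 3. For the interaction the estimates ran from -0.74 for Cx3cr1 (-1.94 to 0.45) to 0.34 for Itgam (-0.80 to 1.48), with a median of -0.43 and a limma adjusted p of 0.9998 for each. That median was -0.97 without ΔIEC adjacent replicate 1, and -0.13 and -0.14 without replicates 2 and 3.

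The adjacent libraries followed one order for most of these genes. Flox replicate 1 and ΔIEC replicates 2 and 3 were the 3 highest of the 6 adjacent libraries for Cd68, Csf1r, Adgre1, Cx3cr1, Ccr2 and Mrc1, 6 of the 10 genes, and the same 3 were highest for 13.5% of all tested genes. These 3 libraries were picked as the set most often highest among the 10 genes, so the count of 6 is a description only. ΔIEC replicate 1 was the lowest for 6 of 10. Arg1 ran against this order, with its highest adjacent values in flox replicates 2 and 3 and its lowest in ΔIEC replicates 2 and 3. The same 3 libraries were highest for all 7 fibroblast markers, all 6 endothelial markers, 11 of 17 core myeloid genes and 9 of 14 tested genes of resident macrophages. They were highest for 0 of 8 epithelial markers and 1 of 7 smooth muscle markers. The summed FPKM of the fibroblast markers was 179.9 in flox replicate 1 and 254 and 209 in ΔIEC replicates 2 and 3, against 46.5 to 85.2 in the other adjacent libraries. The summed FPKM of the B and plasma cell markers was 1012 and 836 in ΔIEC replicates 2 and 3, against 160.4 to 244 in the other adjacent libraries. All 6 of these markers had a higher mean in ΔIEC adjacent tissue, with a median difference of 1.82, and none was called. The distal colon gene Hoxd13 was at 31, 0.0461 and 0.0735 FPKM in flox adjacent replicates 1, 2 and 3 and 0.0529, 0.137 and 2.67 in ΔIEC ones: it was high in flox replicate 1, low in ΔIEC replicate 3 and near 0 in ΔIEC replicate 2. The part of these differences between the tissue pieces in the macrophage values was not tested.

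Ratios to Csf1r describe how each gene stood relative to a general macrophage gene in the same library, and were added after the values had been seen. Arg1 was at 0.12, 0.589 and 0.398 times Csf1r in flox adjacent replicates 1, 2 and 3 and at 1.93, 2.69 and 2.77 times in flox tumours. In ΔIEC mice the ratios were 0.335, 0.0476 and 0.0323 in adjacent tissue and 4.03, 0.945 and 1.04 in tumours. Neither genotype's tumours overlapped with its adjacent tissue, and the mean ratio was 6.67-fold and 14.5-fold higher in tumours. For Spp1 the mean ratio was 0.0929 ± 0.0643 in flox adjacent tissue and 1.57 ± 0.366 in flox tumours (SD, n = 3), and 0.0293 ± 0.0205 and 1.81 ± 1.4 in ΔIEC mice. These were 16.9-fold and 61.7-fold higher in tumours, also without overlap. Arg1 and Spp1 passed the filter on low values only with the tumours. Without division by Csf1r, 26.4% and 20.8% of all tested genes were higher without overlap in flox and ΔIEC tumours. The share of all tested genes whose ratio to Csf1r does not overlap was not examined.

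The lineage genes kept closer to Csf1r. The ratio of Cd68 was 0.78 ± 0.0432 in flox adjacent tissue, 0.719 ± 0.179 in flox tumours, 0.708 ± 0.20 in ΔIEC adjacent tissue and 0.647 ± 0.0933 in ΔIEC tumours, overlapping throughout. Mrc1 relative to Csf1r was 1.37-fold higher in flox tumours, with overlap, and 1.40-fold higher in ΔIEC tumours, without. Cx3cr1 relative to Csf1r had a mean in tumours that was 0.763 of that in adjacent tissue in flox, with overlap, and 0.559 in ΔIEC mice, without. Itgam relative to Csf1r was 1.21-fold and 2.51-fold higher in the means, with overlap in flox and without it in ΔIEC mice. The tumour mean for Adgre1 was 0.775 of the adjacent one in flox and 0.691 in ΔIEC mice, with overlap. For Ccr2 these values were 1.14 and 0.713, also with overlap. For the scarce Cd163 they were 0.307, with overlap, and 0.218, without. Between the adjacent groups Itgam relative to Csf1r was lower in ΔIEC mice without overlap, at 0.303 ± 0.0323 against 0.512 ± 0.103. With 3 libraries against 3 none of these ratios can pass an exact permutation test at 0.05, the smallest p being 0.1.

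**Figure D3:**
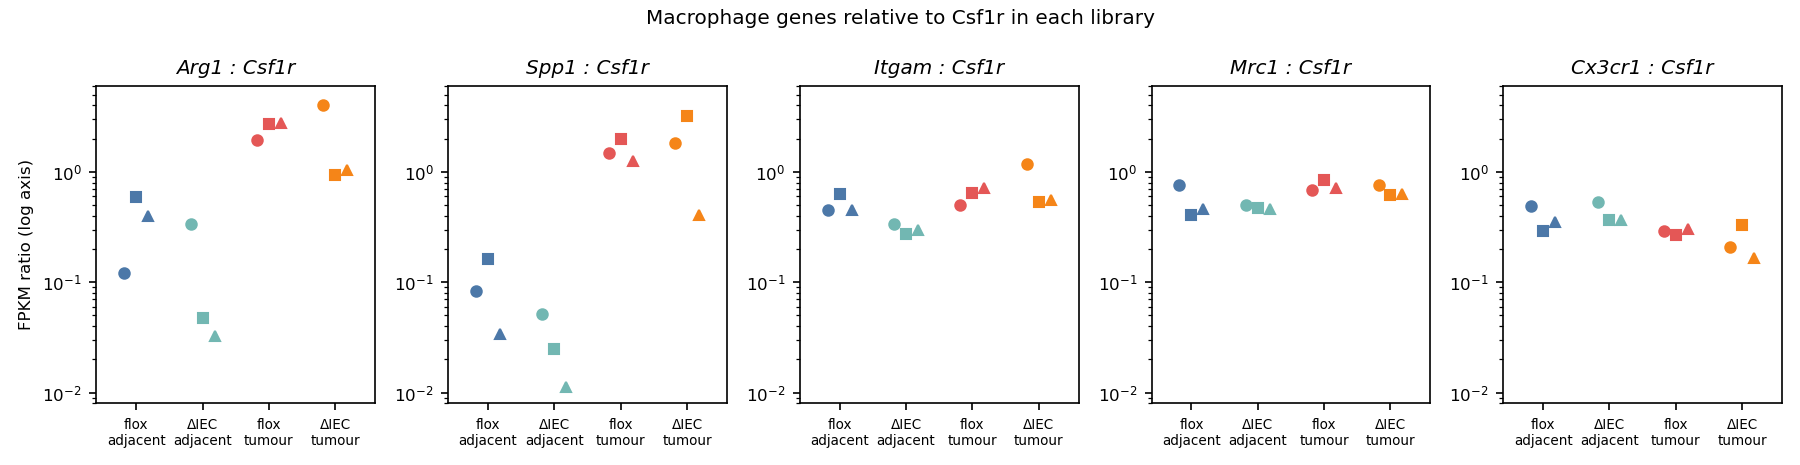
FPKM of Arg1, Spp1, Itgam, Mrc1 and Cx3cr1 divided by FPKM of Csf1r in the same library (circle, square and triangle for replicates 1, 2 and 3), on a log axis, for the 4 groups. Arg1 and Spp1 rise between adjacent tissue and tumour in both genotypes, by 6.67-fold to 61.7-fold in the mean ratio, while Itgam, Mrc1 and Cx3cr1 lie between 0.167 and 1.19 in all 12 libraries.

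Deviations from the group means over the 12 libraries, which leave out the group differences, described which genes moved together from library to library. Csf1r went with Cd68 (r = 0.94) and Mrc1 (r = 0.94), and Adgre1 with Cx3cr1 (r = 0.92). Arg1 did not go with Csf1r (r = -0.24) or Spp1 (r = -0.05), nor Spp1 with Csf1r (r = 0.02). Mrc1 went with the fibroblast gene Dcn (r = 0.94) and the endothelial gene Pecam1 (r = 0.92). Csf1r also went with the B cell gene Cd79a (r = 0.84). Itgam went with Cd68 (r = 0.82), Csf1r (r = 0.80), Mrc1 (r = 0.78) and the complement gene C1qa (r = 0.84), and with S100a8, an abundant neutrophil gene (r = 0.69). Arg1 went with S100a8 (r = 0.70). Of all tested genes outside the 10 with a mean of at least 2 FPKM, those most like Csf1r were C1qb (r = 0.98), Hip1 (0.98) and C1qa (0.97), and those most like Cd68 were C1qc (0.98), Plekho2 (0.98) and Ggta1 (0.97). C1qa, C1qb and C1qc encode the chains of complement C1q. For Mrc1 they were Sept4, Entpd1 and Dennd5a, for Itgam Dbn1, Rab8b and Tmem123, for Arg1 Rtraf, Sp5 and Tmem120a, and for Spp1 Trp53inp1, Cog8 and Dnaja4. For Adgre1 they were Pcdh7, Rab34 and Dubr, for Cx3cr1 Pde3b, Abcg3 and Otulinl, and for Ccr2 Icosl, Vav1 and Sh3bp5. These coefficients share the libraries and their tissue makeup, were picked as the highest, and carry no test.

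Ligands of the receptors were measured in the same libraries. Ccl2 and Ccl7, which draw Ccr2-bearing monocytes, both rose. Ccl2 was at 0.352 ± 0.27 FPKM in flox adjacent tissue and 4.61 ± 2.2 in flox tumours (log2 difference 1.99, limma adjusted p = 9.01e-04), and at 0.432 ± 0.257 and 6.34 ± 0.789 in ΔIEC mice (2.37, adjusted p = 0.00104). Ccl7 rose by 2.28 and 2.16. Csf1 rose in flox tumours (2.49 ± 1.26 to 9.43 ± 1.15 FPKM, 1.63, adjusted p = 0.0208), and its ΔIEC difference of 0.92 was not called (adjusted p = 0.158). Cx3cl1, fractalkine, fell in both genotypes, from 31.9 ± 5.18 to 10.7 ± 2.24 FPKM in flox (-1.49, adjusted p = 0.00188) and from 28.4 ± 10.01 to 10.7 ± 2.37 in ΔIEC mice (-1.29, adjusted p = 0.00537). Of the 7 ligands listed, 4 were called higher and 1 lower in flox, and 3 higher and 1 lower in ΔIEC mice, where 16.6% and 13.9% of all tested genes were called higher and 19.7% and 15.5% lower. Ccl2, Ccl7 and Ccl12, 3 of those called higher, passed the filter on low values only with the tumours. With no filter Ccl2 and Ccl7 were still called (adjusted p of at most 0.00265), and Ccl12 was not in ΔIEC mice (0.0649).

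Osteopontin binds integrins and Cd44. Of 7 such receptor genes 4 were called higher in flox tumours and 3 in ΔIEC tumours, with none lower, against the same 16.6% and 13.9% of all tested genes, and all 7 passed the filter on adjacent libraries alone. Cd44 was at 37.4 ± 15 and 78.2 ± 2.1 FPKM in flox adjacent tissue and tumours and at 30.1 ± 10.2 and 88.7 ± 22.9 in ΔIEC mice. Itgav, the alpha-v integrin chain, rose by 0.91 and 0.99, and its partner Itgb1 by 0.50 and 0.76. Itgb3 rose in flox tumours by 1.35 (adjusted p = 0.0326), and its ΔIEC difference of 1.07 was not called (adjusted p = 0.0834).

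Around arginase, 10 genes of arginine and polyamine metabolism gave 3 called higher and 1 lower in flox, and 4 higher and 0 lower in ΔIEC mice. Of all tested genes 16.6% were higher and 19.7% lower in flox, and 13.9% and 15.5% in ΔIEC mice. Whether counts among 10 genes differ from these shares was not tested. With no filter the higher counts were 2 and 2. The arginine transporter Slc7a2 was low but rose, from 0.316 ± 0.0849 to 1.9 ± 0.166 FPKM in flox (adjusted p = 5.71e-04) and from 0.363 ± 0.166 to 1.42 ± 0.256 in ΔIEC mice (adjusted p = 0.00337). It was tested only because its tumours were high, and with no filter its adjusted p was 9.15e-04 and 0.00457. Asl, which makes arginine from argininosuccinate, rose by 0.45 and 0.61. Oat, which turns ornithine towards proline and glutamate, fell in flox tumours (56.5 ± 15.8 to 27.1 ± 1.81 FPKM, adjusted p = 0.00689), and its ΔIEC difference of -0.59 was not called. Arg2, the mitochondrial arginase, was at 6.7 ± 4.6, 2.11 ± 0.584, 1.99 ± 1.54 and 2.96 ± 1.28 FPKM in flox adjacent, flox tumour, ΔIEC adjacent and ΔIEC tumour, and was named after its values were seen, as the other arginase.

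Wider myeloid lists are given as counts beside the same background shares of 16.6% and 13.9% called higher. Genes that passed the filter on low values only with the tumours lend the counts no support. Of 17 core myeloid genes 9 were called higher in flox and 6 in ΔIEC tumours, with none lower, and 5 and 4 with no filter. All 17 passed on adjacent libraries alone. The beta-glucan receptor Clec7a was at 3.7 ± 0.399 and 30.3 ± 17.8 FPKM in flox and 5.96 ± 4.15 and 31.1 ± 13.4 in ΔIEC mice, and the signalling adaptor Tyrobp rose by 2.04 and 1.69. Of 10 monocyte genes 4 were higher and 1 lower in flox, and 2 higher in ΔIEC tumours, with Fn1 at 2.53 and 2.00 and the chemokine receptor Ccr1 at 1.55 and 1.54. Chil3, which was not called, passed only with the tumours.

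Of 14 tested genes of resident macrophages and uptake of dying cells, 2 were higher and 1 lower in flox, and 1 higher and 1 lower in ΔIEC mice. The one lower in both was Mertk, a receptor for the uptake of dying cells, from 19.5 ± 5.07 to 3.17 ± 1.29 FPKM in flox (log2 difference -2.31, adjusted p = 9.06e-04) and from 15.8 ± 6.73 to 3.6 ± 1.33 in ΔIEC mice (-1.84, adjusted p = 0.00403). In flox adjacent tissue Mertk stood above Csf1r, and epithelial markers fell in the same comparison, 7 of 8 in flox and 2 of 8 in ΔIEC tumours; their part in the Mertk level was not tested. Fcgr1, the high-affinity receptor for IgG, rose by 1.00 and 0.87, but passed the filter only with the tumours, and with no filter its adjusted p was 0.0263 and 0.0543. Folr2, not called, also passed only with them. Vsig4 and Cd209f were below 0.5 FPKM in all libraries.

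Of 11 tested genes of tumour and injury macrophages 5 were higher and 1 lower in each genotype. The elastase Mmp12 was at 1.26 ± 1.34 and 17.6 ± 7.0 FPKM in flox and 0.416 ± 0.136 and 20.4 ± 13.8 in ΔIEC mice, and the haem oxygenase Hmox1 rose by 2.70 and 2.16. Mmp12 and Trem2 were tested only through the tumours, and 3 of the other 9 were called higher in each genotype. Of 6 tested inflammatory products 5 were higher in each genotype: Il1b was at 1.51 ± 0.948 and 48.3 ± 31.2 FPKM in flox and 2.37 ± 1.71 and 75.4 ± 57.4 in ΔIEC mice, and Cxcl2 rose by 4.15 and 4.40. Cxcl2 and Il23a, 2 of the 5, were below 1 FPKM in all adjacent libraries and were tested only through the tumours. Of the other 4, 3 were called higher in each genotype. With no filter the adjusted p of Cxcl2 was 0.00175 and 0.00297 and that of Il23a 0.0167 and 0.0284. Of 6 tested genes of alternative activation, the state in which Arg1 is best known, 3 were higher in each genotype, and 1 and 2 of 11 with no filter. Mgl2, Ccl24, Ccl17 and Ccl22 passed the filter only with the tumours. Ccl24 rose by 2.38 and 3.57 and Tgm2 by 1.07 and 1.33, while Chil4 was below 0.5 FPKM in all libraries and Retnla, named after its values were seen, ranged from 0 to 1.27 FPKM.

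Markers of other cells moved in the same comparisons. Of 8 tested neutrophil markers 7 were called higher in tumours of both genotypes, of which 4 (Cxcr2, Csf3r, Retnlg and Mmp8) were tested only through the tumours. S100a8 was at 1.56 ± 0.627 and 109 ± 57.7 FPKM in flox and 1.46 ± 1.26 and 129 ± 109.6 in ΔIEC mice, and the list's summed FPKM had ranges of 7.54 to 199 in flox adjacent tissue, 213 to 629 in flox tumours, 42.3 to 172 in ΔIEC adjacent tissue and 295 to 843 in ΔIEC tumours. The highest adjacent sums rested mostly on Ly6g, at 192 of the 199 FPKM in flox replicate 1 and 161 of the 172 in ΔIEC replicate 3. Without Ly6g, a sum added after the values had been seen, the ranges were 4.07 to 10.1, 168 to 529, 3.84 to 10.8 and 229 to 762 FPKM in the same order. Ngp stayed below 0.5 FPKM throughout. Fibroblast markers were called higher for 5 of 7 in flox and 1 of 7 in ΔIEC tumours (3 and 0 with no filter), with summed ranges of 55.8 to 179.9, 316 to 533, 46.5 to 254 and 281 to 592 FPKM in flox adjacent, flox tumour, ΔIEC adjacent and ΔIEC tumour. Endothelial markers were higher for 4 of 6 and 0 of 6, with ranges of 10.2 to 24.8, 38 to 47.1, 11.7 to 38.6 and 37 to 48.7 FPKM. Epithelial markers were lower for 7 of 8 in flox and 2 of 8 in ΔIEC tumours, with ranges of 6985 to 9584, 4002 to 5562, 5572 to 7587 and 4824 to 5743 FPKM.

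Of the remaining marker lists, Siglecf of 2 tested eosinophil markers and Cd8a of 6 T and NK cell markers were lower in flox tumours. Dendritic cell, B and plasma cell and smooth muscle markers gave no call in either genotype. Of 5 tested genes of colon region 2, Hoxd13 and Hoxd12, were called higher in tumours of both genotypes, both tested only through the tumours. The tumour means of Hoxd13 were 62.9 ± 7.03 FPKM (flox) and 49.2 ± 5.86 FPKM (ΔIEC; log2 differences 4.27 and 4.93, limma adjusted p = 0.0143 and 0.00975), and Hoxd12 differed by 3.00 and 2.77. The part of colon position in the macrophage values was not tested. The eosinophil genes Epx, Ear1 and Ear6 and the NK cell gene Ncr1 were below 0.5 FPKM in all libraries. The share of these other cells in the levels of Itgam, Arg1, Spp1 and Mrc1 was not tested.

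**Figure D4:**
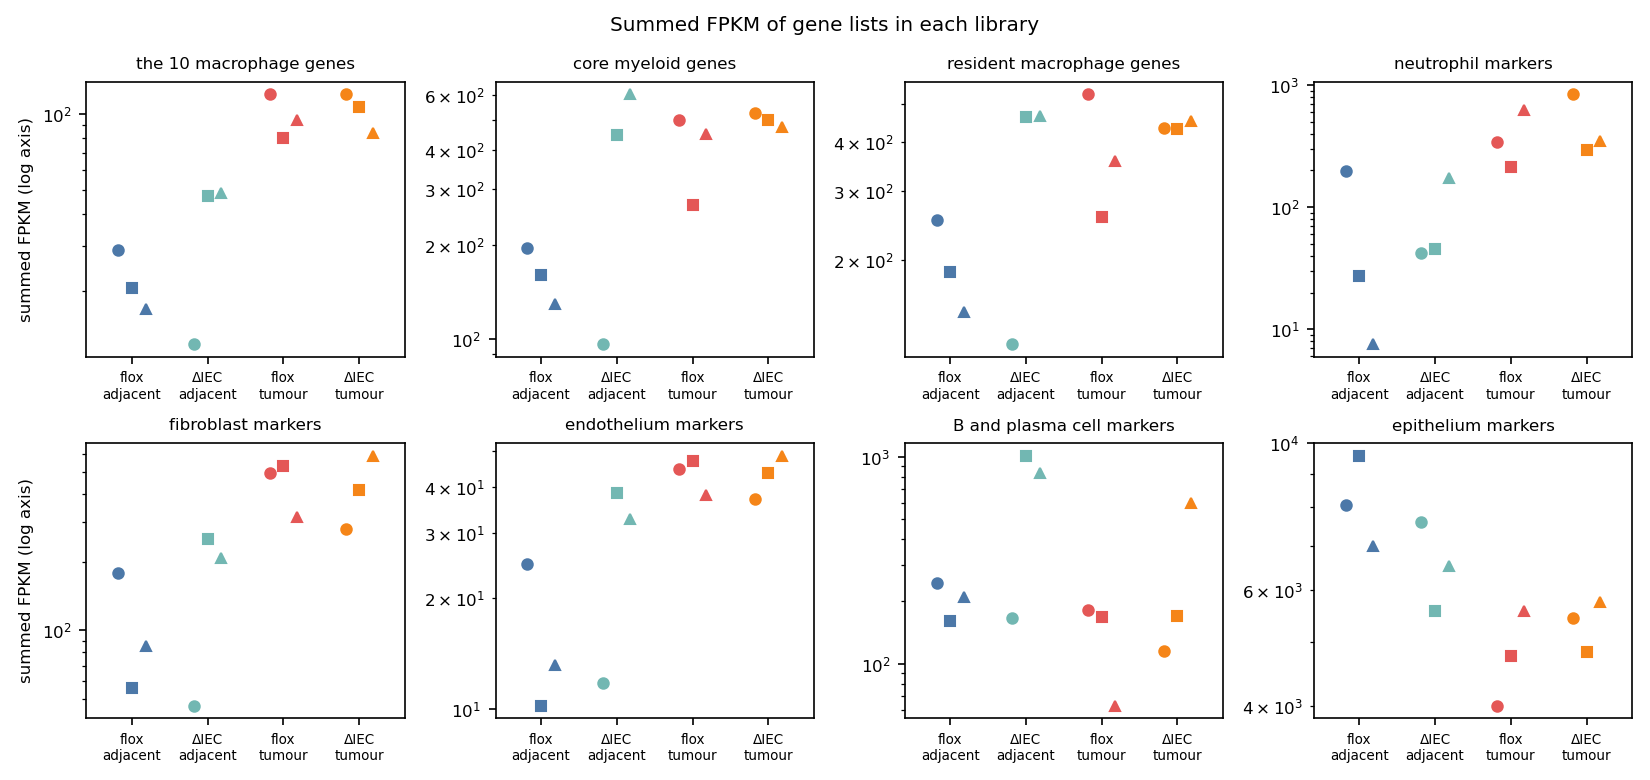
Summed FPKM of the 10 macrophage genes, of 2 wider myeloid lists and of marker lists of other cells in each library (circle, square and triangle for replicates 1, 2 and 3), on log axes. The 10 genes sum to 12.3 to 48.8 FPKM in adjacent tissue and 80.2 to 119.8 in tumours. Those sums include Arg1 and Spp1, at 6.94 to 47.1 FPKM in tumours and at most 2.74 in adjacent tissue. Without these genes the sums overlap. Flox tumour replicate 2 (80.2 FPKM with them) then lies below ΔIEC adjacent replicate 3 (48.8 FPKM with them). The neutrophil markers rise and the epithelial markers fall between the same groups, with overlap where the ranges above show it. The neutrophil sum includes Ly6g.

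Promoters are shown for the genes called in flox tumours for which RefSeq gives an entry, Cd68, Itgam, Mrc1 and Spp1, which have that call in common. Each run holds the 250 bases before a RefSeq transcript start, 5′ to 3′ on the gene's strand, in GRCm38.p6. Capitals mark the letters GAGGAA of PU.1, a factor of all myeloid cells, TTGCNNAA of C/EBP factors and TGANTCA of AP-1, searched on both strands, so that PU.1 may also read TTCCTC. The windows are chr11:69666171-69666420 (minus strand), chr7:128062390-128062639, chr2:14229164-14229413 and chr5:104434861-104435110 (plus strand). They hold no annotated exon except for the last 22 bases of the Mrc1 window.
Cd68: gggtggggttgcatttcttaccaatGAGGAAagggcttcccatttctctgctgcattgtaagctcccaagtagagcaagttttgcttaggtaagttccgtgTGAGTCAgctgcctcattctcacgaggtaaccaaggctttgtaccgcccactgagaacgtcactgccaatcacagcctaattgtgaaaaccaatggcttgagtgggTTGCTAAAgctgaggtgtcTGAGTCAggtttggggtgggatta
Itgam: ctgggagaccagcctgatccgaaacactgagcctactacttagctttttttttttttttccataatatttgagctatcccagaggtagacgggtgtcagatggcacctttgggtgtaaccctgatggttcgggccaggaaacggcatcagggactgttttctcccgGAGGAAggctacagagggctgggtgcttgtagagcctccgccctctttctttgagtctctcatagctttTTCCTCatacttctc
Mrc1: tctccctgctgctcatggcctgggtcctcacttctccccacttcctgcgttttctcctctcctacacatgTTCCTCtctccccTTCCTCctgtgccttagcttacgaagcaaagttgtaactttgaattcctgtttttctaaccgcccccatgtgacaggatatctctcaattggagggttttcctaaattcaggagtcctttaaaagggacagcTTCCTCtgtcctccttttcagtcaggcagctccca
Spp1: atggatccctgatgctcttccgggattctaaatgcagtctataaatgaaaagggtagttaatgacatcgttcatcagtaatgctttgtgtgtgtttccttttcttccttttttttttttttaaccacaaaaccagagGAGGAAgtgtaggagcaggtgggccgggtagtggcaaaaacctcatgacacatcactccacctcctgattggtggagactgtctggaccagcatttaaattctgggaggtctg

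The PU.1 letters stood once before Cd68 and Spp1, at 2 places before Itgam and at 3 before Mrc1. Cd68 also held the AP-1 letters at 2 places, 149 and 24 bases before the start, and C/EBP letters 43 bases before it. Of the 7 genes with an entry, 4 held the PU.1 letters, against 23.3% of all 32817 promoter windows of the same length, 2 held the C/EBP letters, against 9.57%, and 1 the AP-1 letters, against 6.75%. These counts are per gene, with 2 windows searched for Spp1, whereas the shares are per window. For Spp1 the C/EBP letters came from its second entry, which starts within the gene and whose 250 bases are annotated exon of Gm42793. The windows of Cx3cr1, Ccr2 and Cd163 held none of the 3.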

How the data were processed

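The deposited table holds log2(FPKM + 1) per transcript, as the authors' values show: all 5829 of the smallest values above 0 were whole multiples of the smallest step such a logarithm allows, within 0.02 of a step. FastQC, STAR 2.5, Cuffnorm and GRCm38 are named in the submitters' processing notes, and strand-specific TruSeq libraries per the labels' protocols. Which settings and annotation were used is not given in the sources used here, and the depth is unknown.

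Of 123062 transcripts 118004 (95.9%) matched GENCODE M21, and FPKM were summed per gene, each library's column being matched by its code in the labels. Genes with at least 1 FPKM in at least 3 of 12 libraries were tested with limma 3.58.1 in R 4.3.3 on log2(FPKM + 1), a pseudocount of 1, with trend and robust moderation, 1 mean per group and 8 residual degrees of freedom. Tests were two-sided, and p was adjusted after Benjamini and Hochberg over all tested genes of each of 5 contrasts, with calls below 0.05. Replicates correlated at 0.960 to 0.981 and no pair was identical. The procedure was tested on simulated data. Promoters came from RefSeq on GRCm38.p6.

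The members, lists and tests were chosen with earlier results of these data known. All 10 genes are named. From other lists up to 4 called genes with the largest difference qualify, or the one with the smallest p, and the most similar genes are the 3 with the highest correlation. Alternatives were a pseudocount of 0.1, no filter or a filter at 5 FPKM, quantile normalization, protein-coding genes rescaled, only the groups compared, plain moderation, the most abundant transcript, replicate blocks and leaving out each library. The region marker Prac1 had no match in the table.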

Additional observations from a re-analysis of the deposited data

How the results depend on the processing

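Leaving out each library in turn, the count of called macrophage genes was 2 to 5 in flox tumours (5 with all libraries) and 3 throughout in ΔIEC tumours, and 0 to 2 for genotype in adjacent tissue. The medians ran from 0.93 to 1.37 and from 0.12 to 1.05 in the tumour comparisons, from 0.14 to 1.00 and -0.06 to 0.20 for genotype in adjacent tissue and tumours, and from -0.97 to -0.13 for the interaction. The lowest ΔIEC tumour median, the highest adjacent median and the lowest interaction came without ΔIEC adjacent replicate 1. Differences that changed sign on leaving out a library were Adgre1 (-0.29 to 0.47), Cx3cr1 (-0.52 to 0.16) and Ccr2 (-0.19 to 0.72) in ΔIEC tumours, and Itgam (-0.21 to 0.48) between adjacent groups. Between tumours they were Cd68 (-0.0148 to 0.16), Csf1r (-0.0320 to 0.41), Adgre1 (-0.0572 to 0.31), Cx3cr1 (-0.33 to 0.0836), Ccr2 (-0.42 to 0.0560), Mrc1 (-0.10 to 0.20) and Spp1 (-0.57 to 0.67), and in the interaction Itgam (-0.11 to 0.58), Arg1 (-0.28 to 0.62) and Spp1 (-0.31 to 0.93).

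With protein-coding genes rescaled, all tested genes shifted to a median of 0.40 in flox and 0.27 in ΔIEC tumours; against that the flox median of the macrophage genes was 1.54, Cx3cr1 in ΔIEC tumours 0.14, and Mrc1 and Spp1 between tumours -0.0194 and -0.0413. A pseudocount of 0.1 gave -0.0447 for Itgam between adjacent groups and -0.00678 for Spp1 between tumours, and quantile normalization -0.0476 for Itgam. The most abundant transcript gave 0.0626 for Ccr2 between tumours and 0.00334 for Adgre1 and -0.20 for Itgam in the interaction. The causes were not tested.

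Codes in the labels repeat between tumour and adjacent libraries, but what they stand for is not given. Libraries of the same code deviated together with r from -0.19 to 0.17 over 5 pairs, against -0.19 to 0.16 for other numbers. Deviations from means of only 3 libraries are not independent and the pairs are few, so this cannot tell whether the codes mark pairs. The main fit took no pairs, because the labels do not give them. A replicate block by code as a fixed term called 9 of 9 genes in flox tumours and 2 in ΔIEC tumours, where Itgam was at 0.94 (limma adjusted p = 0.105), gave medians of 0.15 in ΔIEC tumours and -0.91 for the interaction, and turned Adgre1 (-0.22) and Ccr2 (-0.00120) in ΔIEC tumours and Itgam (-0.34) and Arg1 (-0.18) in the interaction. Over all tested genes the fixed term called 5959 in flox tumours and 651 in ΔIEC tumours, against 6163 and 4981 in the main fit. The block by code as a shared correlation called 5 of the macrophage genes in flox tumours and 3 in ΔIEC tumours, as in the main fit. A replicate block by title number gave 4 calls in flox tumours and 3 in ΔIEC tumours. The cause was not tested. Depth, which FPKM do not carry, limits what can be said of Cd163.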

Other observations

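Transcripts of the same gene were listed separately, and for most of the 10 genes 1 transcript held nearly the whole level. The main transcript held 98.5% of the FPKM of Cd68 over the 12 libraries, 94.7% of Spp1, 93% of Mrc1 and 88% of Csf1r, and Arg1 had a single transcript. Itgam and Ccr2 were split, with 50.8% and 46.6% in their main transcript. That of Adgre1 held 93%, but in ΔIEC adjacent replicate 1 almost all of the Adgre1 level was listed under the other of its 2 transcripts.

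The neutrophil surface gene Ly6g did not follow the other neutrophil markers in adjacent tissue. It was at 192, 17 and 3.46 FPKM in flox adjacent replicates 1, 2 and 3 and 38.4, 35.2 and 161 in the ΔIEC ones, where S100a8 was at 1.24, 2.29 and 1.16 and 0.606, 0.877 and 2.9 FPKM. Its tumour levels were 70.1 ± 28.1 FPKM (flox) and 85.6 ± 23.1 FPKM (ΔIEC; SD, n = 3). The high adjacent values, in flox replicate 1 and ΔIEC replicate 3, came from libraries with 1.24 and 2.9 FPKM of S100a8.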
